A study of Mus musculus with 18 samples.

Results

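The genes of the mouse major histocompatibility complex (MHC) and of antigen presentation were followed across 18 Illumina bead arrays. They were taken by symbol alone: every gene whose symbol starts with H2-, together with B2m, Tap1, Tap2, Tapbp, Cd74, Ciita, Nlrc5 and Cd1d1, each read from the probe with the highest mean signal. This gave 47 genes, measured by 81 probes, of 19074 genes with a symbol on the array. By role they comprised 2 classical class I genes, 26 non-classical class I genes, 5 class II chains, 6 accessory genes of the class II pathway, 4 genes of class I peptide loading, 2 transactivators and Cd1d1. The remaining gene, H2-Ke6, lies in the MHC region but encodes a steroid dehydrogenase with no part in antigen presentation.

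MHC class I molecules pair a heavy chain with beta-2-microglobulin and display peptides from inside the cell to CD8 T cells. The peptides are cut by the proteasome, carried into the endoplasmic reticulum by the Tap1-Tap2 transporter and loaded with the help of tapasin, the product of Tapbp. MHC class II molecules, built from an alpha and a beta chain, display peptides from endocytosed material to CD4 T cells. Their groove is held by the invariant chain Cd74 until H2-DM exchanges the remnant for peptide, a step that H2-DO restrains. Class I is found on most nucleated cells, whereas class II is mostly found on macrophages, dendritic cells and B cells and can be induced by interferon gamma. Nlrc5 is the transactivator of class I genes and Ciita that of class II genes.

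The labels describe CDCP1+ tumor inducing cells from the colon of C57Bl/6 mice, 17 weeks old, of a genotype called FatK that includes Fapbl-Cre and Apc2lox14/+. Every mouse thus carries Cre under the Fapbl element and 1 floxed Apc allele, and cells of both arms were kept in Dox. Cells were sorted with magnetic beads against CDCP1, and were then either left untreated or given Foxd3 shRNA for 24 h. Each of 3 mouse labels, FatK1, FatK5 and FatK7, has 3 untreated and 3 shRNA-treated arrays. The labels name 1 mouse for each, which the sex transcripts described below go against in FatK1 and FatK5. Nothing in the labels says that arrays came from separate cultures, so p-values measure the spread between arrays.

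Mean signal per array lay between 181 and 294, and 17289 to 19993 of 45281 probes were detected (detection p-value below 0.05). Foxd3 was detected on 1 of 18 arrays, so the arrays do not show whether the knockdown worked. The labelled tissue and the transcripts differed. Epcam, a marker of epithelial cells, was detected on 0 arrays, and of 10 intestinal genes 7, 8 and 2 were undetected on every array of FatK1, FatK5 and FatK7. The summed signal of brown fat genes was 49474 to 79948 in FatK1 and 19756 to 35999 in FatK5, that of skeletal muscle genes was 168626 to 217159 in FatK5, and that of liver genes was 78329 to 99260 in FatK7. The intestinal genes Muc2 and Tff3 had signals of 129 to 372 and 83.5 to 1762 on the 9 treated arrays and passed the comparison of arms over labels, but they belong to 46 probes of irregular deposited values (0 of them probes used here for the MHC genes). Their signals are written with more digits on 9 arrays than those of other probes, and their detection p-values are out of step with the signal on 16 and 12 of 18 arrays. Arrays of 1 label also differed in sex transcripts. In FatK1 and FatK5, Xist, expressed from the inactive X chromosome, was at 665 to 1470 on the 3 treated arrays and on untreated array 2, whereas the Y-linked Eif2s3y was at 687 to 872 on untreated arrays 1 and 3. All 6 FatK7 arrays carried Eif2s3y. Results for FatK1 and FatK5 are therefore also given without one or the other set of untreated arrays, and the tissue-like transcripts and the mouse label cannot be told apart.

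MHC promoters are known for a CCAAT-type Y box, and class I and B2m promoters for an element bound by interferon regulatory factors. The bases upstream of the start of 7 of the genes described below are printed to show these elements, with matches to ATTGG (either strand, so CCAAT reads as a match) and to GAAA, any 2 bases and GAAA again (either strand, a string found in interferon-stimulated elements) in capitals. The sequences are RefSeq's on GRCm38.p6, written 5′ to 3′ along the gene, 250 bases ending just before the annotated start. The class I side is shown by B2m at chr2:122147437-122147686 on the plus strand, H2-D1 at chr17:35262844-35263093 on the plus strand and H2-T23 at chr17:36032702-36032951 on the minus strand.
B2m: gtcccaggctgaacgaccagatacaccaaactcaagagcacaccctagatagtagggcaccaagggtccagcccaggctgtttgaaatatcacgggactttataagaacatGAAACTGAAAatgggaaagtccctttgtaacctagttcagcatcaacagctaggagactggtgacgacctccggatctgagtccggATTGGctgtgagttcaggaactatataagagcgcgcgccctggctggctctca
H2-D1: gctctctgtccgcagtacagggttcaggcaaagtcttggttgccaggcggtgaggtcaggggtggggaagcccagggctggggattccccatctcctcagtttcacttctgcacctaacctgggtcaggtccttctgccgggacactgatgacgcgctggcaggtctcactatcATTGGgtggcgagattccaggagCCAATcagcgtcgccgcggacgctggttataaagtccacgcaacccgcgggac
H2-T23: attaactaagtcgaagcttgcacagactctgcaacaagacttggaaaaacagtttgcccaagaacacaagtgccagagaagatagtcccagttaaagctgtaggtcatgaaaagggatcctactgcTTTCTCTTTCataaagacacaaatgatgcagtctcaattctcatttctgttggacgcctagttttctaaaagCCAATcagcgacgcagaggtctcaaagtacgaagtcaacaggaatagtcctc
The class II side is shown by H2-Aa at chr17:34287824-34288073 on the minus strand, H2-Eb1 at chr17:34305617-34305866 on the plus strand, H2-DMb1 at chr17:34152941-34153190 on the plus strand and H2-DMb2 at chr17:34144999-34145248 on the plus strand.
H2-Aa: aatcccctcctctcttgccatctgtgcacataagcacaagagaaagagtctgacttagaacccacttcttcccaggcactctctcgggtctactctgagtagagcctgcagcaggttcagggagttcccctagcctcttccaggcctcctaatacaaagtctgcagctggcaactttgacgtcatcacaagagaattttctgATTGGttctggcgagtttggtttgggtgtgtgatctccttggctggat
H2-Eb1: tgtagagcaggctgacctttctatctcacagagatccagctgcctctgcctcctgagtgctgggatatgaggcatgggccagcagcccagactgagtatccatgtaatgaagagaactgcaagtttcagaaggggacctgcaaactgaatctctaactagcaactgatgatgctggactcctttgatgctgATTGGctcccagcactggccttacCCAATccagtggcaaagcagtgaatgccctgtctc
H2-DMb1: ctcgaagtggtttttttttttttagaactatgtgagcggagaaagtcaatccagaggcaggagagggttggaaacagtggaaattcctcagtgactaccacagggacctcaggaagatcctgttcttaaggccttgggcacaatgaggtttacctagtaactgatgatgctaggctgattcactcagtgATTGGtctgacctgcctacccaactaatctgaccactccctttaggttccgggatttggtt
H2-DMb2: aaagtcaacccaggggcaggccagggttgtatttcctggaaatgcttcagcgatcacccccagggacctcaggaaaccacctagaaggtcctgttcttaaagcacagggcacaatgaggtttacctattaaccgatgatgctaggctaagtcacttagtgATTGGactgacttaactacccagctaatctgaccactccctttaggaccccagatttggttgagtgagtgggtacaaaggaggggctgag
ATTGG began 53 bases before the start in B2m, 48 in H2-Aa, 61 in H2-DMb1 and 90 in H2-DMb2. H2-Eb1 held a forward match at 59 and a reverse match at 35, H2-D1 a forward match at 76 and a reverse match at 53, and H2-T23 a reverse match at 52 bases before the start. The second string was present in B2m and H2-T23 and in none of the other 5 sequences printed, which says nothing of other forms of the element. Over windows of 300 bases, which add 50 bases after the start, 33 of the 47 genes had a RefSeq entry. Of those 29 held ATTGG, or 87.9%, against 37.4% of all 32851 promoters. The 33 were read from the first entry of each gene, whereas the 32851 count every entry. Non-classical class I genes made up 19 of the 33, and many H2 genes are near copies, so their matches are not independent. The second string was found in 3 of the 33 (B2m, H2-T23 and H2-T22), against 3.44% of all promoters. H2-Ab1 was among the 14 genes with no entry. A match is a string of letters and does not show that a factor bound there.

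Of the 47 genes, 33 were detected on at least 3 arrays and were tested, and 16 of these were detected on all 18 arrays. The 14 genes that were not tested were 13 non-classical class I genes, 8 of them detected on 0 arrays, and the class II alpha chain H2-Ea, detected on 2 arrays with a highest signal of 20.8. C57BL/6 mice are known not to express H2-Ea. Both classical class I genes, H2-K1 and H2-D1, were detected on every array, as were B2m, Tap2, Cd1d1, H2-M3, H2-T23, H2-Q5 and H2-Q7. Among class II genes H2-Aa, H2-Ab1, H2-Eb1, Cd74, H2-DMa and H2-DMb1 were detected on every array. H2-M2, H2-Q1 and H2-Q10 passed the detection filter through FatK7 arrays alone, so they had to differ between FatK7 and the other labels. H2-Bl (detected on 1, 0 and 6 arrays of FatK1, FatK5 and FatK7) and H2-Oa (1, 1 and 6) also needed FatK7 arrays to pass. H2-Ob (0, 4 and 1) needed FatK5 arrays, and H2-T22 (6, 2 and 0) needed FatK1 arrays. For these genes the filter favoured a higher level in the label they needed. Many H2 genes are near copies of each other, and whether a probe also bound a related transcript was not tested.

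**Figure D1:**
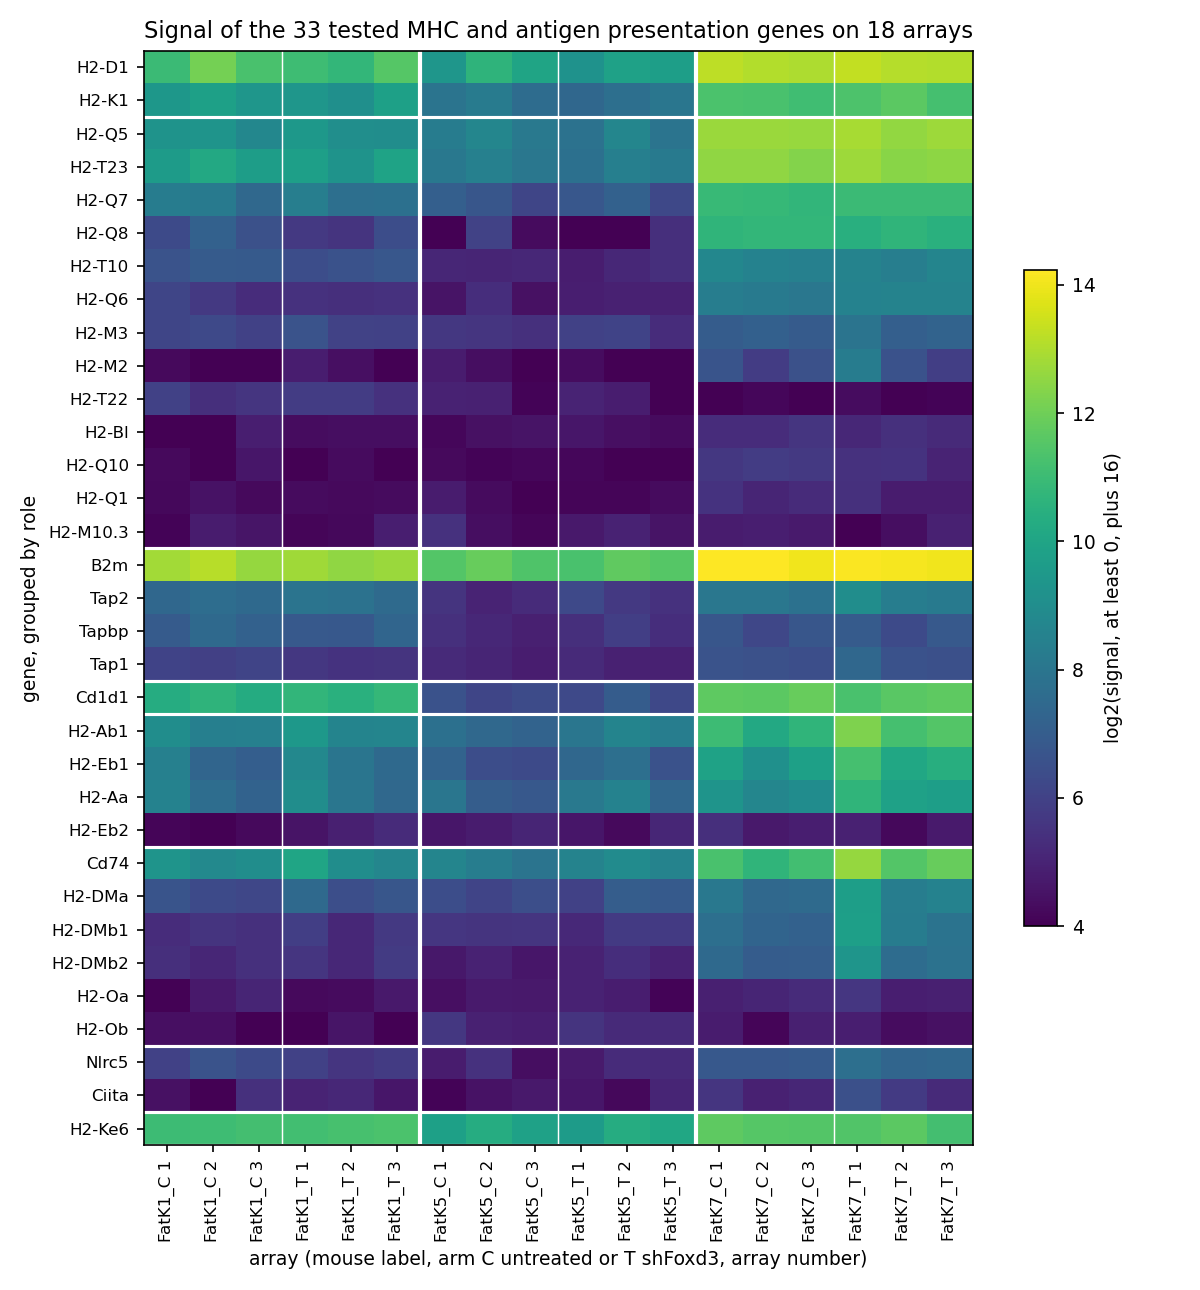
Signal of the 33 tested genes (rows, grouped by role) on the 18 arrays (columns, 3 per mouse label and arm), as log2 of the deposited signal, floored at 0, plus 16. The FatK7 columns are the brightest for most rows, and H2-T22, detected on 0 FatK7 arrays, is an exception.

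The comparison of Foxd3 shRNA with untreated cells was first made within FatK7, the label in which class II genes passed the test. Of 33 genes tested, 3 rose and 0 fell (limma, Benjamini-Hochberg adjusted p below 0.05), against 0.496% of all 24817 probes that rose and 0.334% that fell. The 3 were H2-Ab1, H2-DMb1 and H2-DMb2. H2-Ab1, the beta chain of the class II molecule H2-A, was at 2084, 1126 and 1647 on untreated arrays 1, 2 and 3, and at 4863, 2353 and 2884 on treated arrays 1, 2 and 3. Every treated array was above every untreated one, and the first treated array was the brightest of the 6. The normalized log2 difference was 1.16 ± 0.25 (SE), or 2.23-fold, with an adjusted p of 0.0333. The gene's other probes rose as well, by 1.04 (adjusted p = 0.0313) and 1.11 (adjusted p = 0.0332).

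H2-DMb1 and H2-DMb2 encode beta chains of H2-DM, the exchange factor of class II loading. H2-DMb1 was at 196, 140 and 129 on untreated FatK7 arrays and at 857, 296 and 221 on treated arrays. Its log2 difference was 1.25 ± 0.26, with a 95% interval of 0.71 to 1.79, or 2.38-fold (adjusted p = 0.0245). H2-DMb2 was at 167, 112 and 114 untreated and at 634, 179 and 213 treated. The log2 difference of H2-DMb2 was 1.10 ± 0.25, or 2.14-fold (adjusted p = 0.0449). For both genes all treated arrays lay above all untreated arrays, and treated array 1 stood well above treated arrays 2 and 3. H2-DMa, the alpha chain of the same complex, was at 255, 162 and 169 untreated and at 842, 312 and 360 treated, a log2 difference of 1.20 ± 0.28 with an adjusted p of 0.0537. Its second probe passed the test, at 1.27 with an adjusted p of 0.0243.

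Other class II genes gave differences of like size that did not pass. Cd74, the invariant chain, was at 2495, 1637 and 2215 on untreated FatK7 arrays and at 6216, 2889 and 3699 on treated arrays (log2 difference 1.10 ± 0.28, adjusted p = 0.0837). H2-Aa, the alpha chain partner of H2-Ab1, was at 612, 394 and 494 untreated and at 1658, 901 and 836 treated (1.14 ± 0.42, adjusted p = 0.327). H2-Eb1, a beta chain of the H2-E molecule, was at 936, 551 and 879 untreated and at 2364, 1080 and 1334 treated (1.03 ± 0.41, adjusted p = 0.392). In each of these 3 genes the treated arrays lay above the untreated ones without overlap. The SE of H2-Aa and H2-Eb1, which is shared by all labels, was larger than that of H2-Ab1. The 3 class II genes without such a separation had low signals: H2-Oa and H2-Ob, the chains of H2-DO, did not exceed 33.2 and 14.0 in FatK7, and H2-Eb2 did not exceed 26.0. In normalized values, 7 of the 10 class II genes tested had treated arrays above untreated ones, against 8.67% of all probes. None of the 33 genes had normalized treated values wholly below the untreated ones, against 9.09% of all probes. The median log2 difference over the 10 was 1.10, against 0.00 for all probes.

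The 3 calls depended on single arrays. The number of genes called in FatK7 was 0 without treated array 1, without untreated array 2 or without untreated array 3, 1 (H2-Ab1) without untreated array 1, and 5 without treated array 2. The log2 differences were positive in each of these fits, between 0.93 and 1.38 for H2-Ab1 and between 0.84 and 1.48 for H2-DMb1 over all alternatives run. H2-DMb2 passed in 9 of the 28 alternatives that tested it (log2 differences 0.71 to 1.38, highest adjusted p 0.207), against 24 of 29 for H2-DMb1 and 23 of 29 for H2-Ab1. With each array centred on its median, or on the series' own processed values, H2-DMb1 alone passed.

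**Figure D2:**
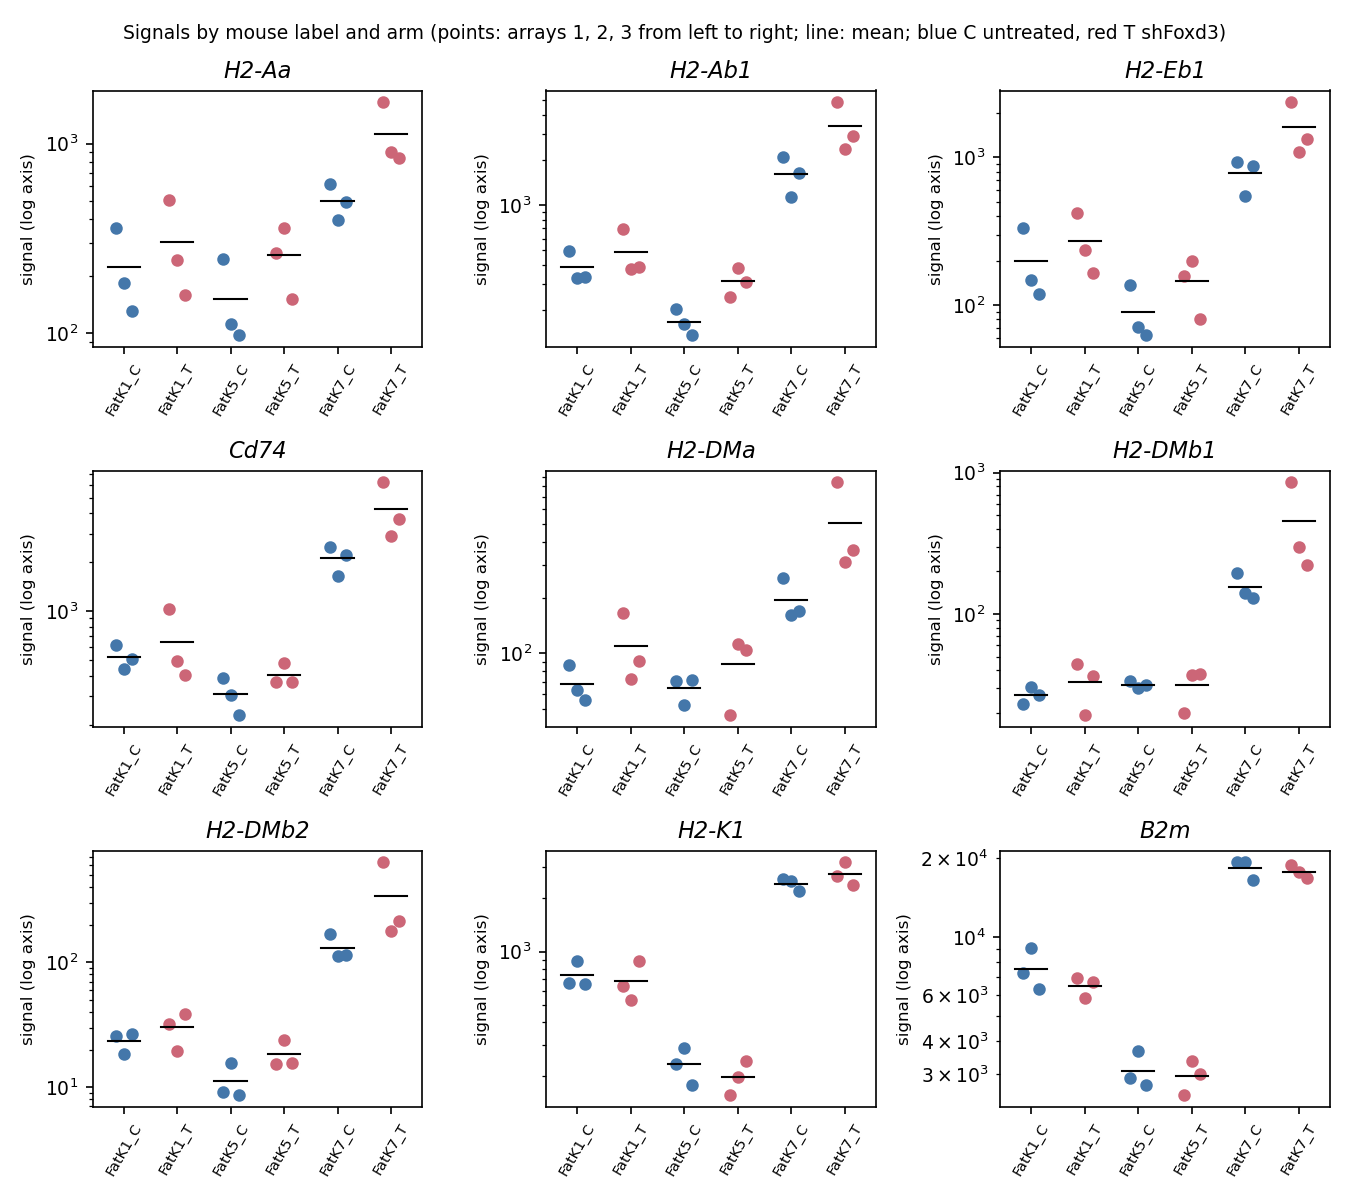
Signals of 7 class II genes, H2-K1 and B2m by mouse label and arm, on a log axis (points: arrays 1, 2 and 3 from left to right, lines: means, blue untreated, red Foxd3 shRNA). In FatK7 every treated array of H2-Ab1 (2353 to 4863) lay above every untreated array (1126 to 2084).

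No gene of class I presentation passed in FatK7. H2-D1 was at 9469, 8462 and 7971 untreated and at 10148, 8706 and 8506 treated, a log2 difference of 0.25 ± 0.25. H2-K1 was at 2556, 2483 and 2193 untreated and at 2668, 3183 and 2366 treated (0.31 ± 0.18, adjusted p = 0.649). B2m, the shared light chain, was at 19239, 19261 and 16475 untreated and at 18708, 17600 and 16737 treated (0.07 ± 0.10, adjusted p = 0.949). None of the 15 class I heavy chain genes tested passed, their median was 0.25, and in 6 of them the normalized treated values lay above the untreated ones, where 8.67% of all probes did. The deposited signals are not scaled between arrays, so their ranges can overlap where the normalized values do not. Tap1 was at 81.9, 77.6 and 72.3 untreated and at 157, 78.5 and 75.7 treated (0.36 ± 0.17, adjusted p = 0.512), and treated array 1 stood well above the rest in signal. Tap2 was at 251, 251 and 210 untreated and at 501, 308 and 286 treated (0.60 ± 0.24, adjusted p = 0.395). Nlrc5, the class I transactivator, was at 95.7, 96.1 and 102 untreated and at 196, 147 and 155 treated, with no overlap (0.70 ± 0.18, adjusted p = 0.0933). Ciita, the class II transactivator, was at 31.7, 14.8 and 18.7 untreated and at 74.3, 38.0 and 21.7 treated (0.60 ± 0.21, adjusted p = 0.301).

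Markers of the cells that carry class II were read on the same FatK7 arrays. Of all probes 0.496% rose and 0.334% fell in FatK7, and 8.67% had treated values wholly above untreated ones. Of 12 macrophage markers 4 rose and 0 fell, and 11 of 12 had treated values above untreated ones. Their summed signal was 10731, 8790 and 9095 on untreated arrays 1, 2 and 3 and 21610, 11664 and 10643 on treated arrays 1, 2 and 3, so treated array 1, the brightest for class II, was also the brightest for this list. Marco, a scavenger receptor of macrophages, was at 111, 143 and 111 untreated and at 1322, 421 and 327 treated (log2 difference 2.04, adjusted p = 0.00024). Adgre1, which encodes F4/80, gave 1.18 (adjusted p = 0.0475). Of 5 dendritic cell markers tested, Batf3 rose by 0.98 (adjusted p = 0.00809) and Clec9a by 0.67 (adjusted p = 0.0402), while Flt3 was detected on 0 arrays. The median log2 difference over the 5 was 0.09 and the lowest −0.18, and 2 had treated values wholly above untreated ones. The B cell markers Ms4a1 and Pax5 were detected on 0 of 18 arrays, none of 3 B cell markers tested passed, and the summed signal of the list was 50.6 to 99.5 untreated and 45.9 to 162 treated. Of 5 T and NK cell markers tested Cd3g rose by 0.50 (adjusted p = 0.0481), Cd8a and Ncr1 were detected on 0 arrays, and the sum was 55.0 to 141 untreated and 118 to 249 treated. The median over these 5 was 0.34 and the lowest −0.13, and 1 had treated values wholly above untreated ones. The part of these cells in the class II result was not tested. In RNA of a whole sample, more cells of a type and more RNA per cell cannot be told apart.

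Neither FatK1 nor FatK5 gave a call among the 33 genes, where 0.737% and 0.25% of all probes passed in either direction. At an unadjusted p below 0.05 there were 8 genes in FatK1 and 5 in FatK5, against 9.99% and 10.8% of all probes. Besides H2-Eb2, which was higher, those in FatK1 serve class I presentation and had lower values on treated arrays. B2m was at 7256, 9070 and 6307 untreated and at 6959, 5860 and 6704 treated, with a log2 difference of −0.37 ± 0.10 (adjusted p = 0.0909). Nlrc5 was at 46.5, 81.1 and 62.4 untreated and at 46.9, 31.6 and 38.5 treated (−0.71 ± 0.18, adjusted p = 0.0908). Tap1 was at 51.4, 44.9 and 52.5 untreated and at 34.8, 29.5 and 30.2 treated (−0.64 ± 0.17, adjusted p = 0.0902). The treated values of all 3 lay below the untreated ones after normalization, as did those of 5 of the 33 genes in all, against 7.74% of all probes, while 1 gene had them wholly above, against 6.34%. H2-D1 was at 2006, 4407 and 2492 untreated and at 2138, 1751 and 2960 treated, with untreated array 2 far above the rest (−0.56 ± 0.25, adjusted p = 0.468). H2-Q8, a Qa-2 family gene, was at 62.2, 128 and 77.4 untreated and at 36.6, 29.9 and 69.6 treated (−0.996 ± 0.316, adjusted p = 0.211). In the same arrays 7 of 9 skeletal muscle genes rose, against 0.737% of all probes called in either direction. The summed signal of these genes was 51.9 to 21459 untreated and 24652 to 80167 treated, and their part in the class I values was not tested.

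These values depended on which untreated arrays were used. Without untreated arrays 1 and 3 of FatK1 and FatK5, untreated array 2 was left alone in each label. That fit assumes that it varies like the other groups, so no call is read from it. In FatK1 the log2 differences were then −0.53 for B2m, −1.12 for H2-D1, −1.47 for H2-Q8 and −0.97 for Nlrc5. In FatK5 that of H2-D1 was −1.05. For B2m, H2-D1, H2-Q8 and Nlrc5 untreated array 2 was the highest of the 6 arrays in both labels in normalized values. Its use as the only untreated array therefore favoured a fall. Without untreated array 2 instead, 0 genes passed in either label. The FatK1 differences were then −0.28 for B2m, −0.27 for H2-D1, −0.78 for H2-Q8 and −0.59 for Nlrc5. Leaving out untreated array 1 of FatK1, or untreated array 2 of FatK5, gave 1 call in FatK1, that of Nlrc5.

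In FatK5 the 5 genes with an unadjusted p below 0.05 were H2-Ab1, H2-K1, H2-D1, H2-Q5 and B2m. H2-Ab1 was at 203, 162 and 137 untreated and at 243, 381 and 308 treated, with no overlap (log2 difference 0.70 ± 0.25, adjusted p = 0.292). H2-K1 was at 233, 287 and 179 untreated and at 156, 197 and 243 treated (−0.40 ± 0.18, adjusted p = 0.419). H2-D1 was at 640, 1615 and 981 untreated and at 583, 905 and 848 treated (−0.56 ± 0.25, adjusted p = 0.429). B2m was at 2886, 3674 and 2718 untreated and at 2495, 3354 and 2992 treated (−0.23 ± 0.10, adjusted p = 0.387). In normalized values 2 genes had treated arrays above untreated ones and 3 had them below, against 6.1% and 6.14% of all probes. The summed macrophage signal was 1147 to 1980 untreated and 1400 to 3332 treated in FatK5, and 1837 to 2599 untreated and 2382 to 3979 treated in FatK1. Class II genes did not pass outside FatK7. Of the 10 tested, 7 had positive log2 differences in FatK1 (median 0.08) and 8 in FatK5 (median 0.15). Of all 24817 probes, 11501 and 12388 were positive. Cd74 was at 618, 440 and 505 untreated and at 1030, 496 and 403 treated in FatK1. In FatK5 H2-Aa was at 246, 112 and 97.9 untreated and at 265, 361 and 151 treated. H2-DMb1, with the lowest difference of the 10 in FatK5 (−0.20), was at 33.8, 30.1 and 31.2 untreated and at 20.0, 37.2 and 37.3 treated.

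**Figure D3:**
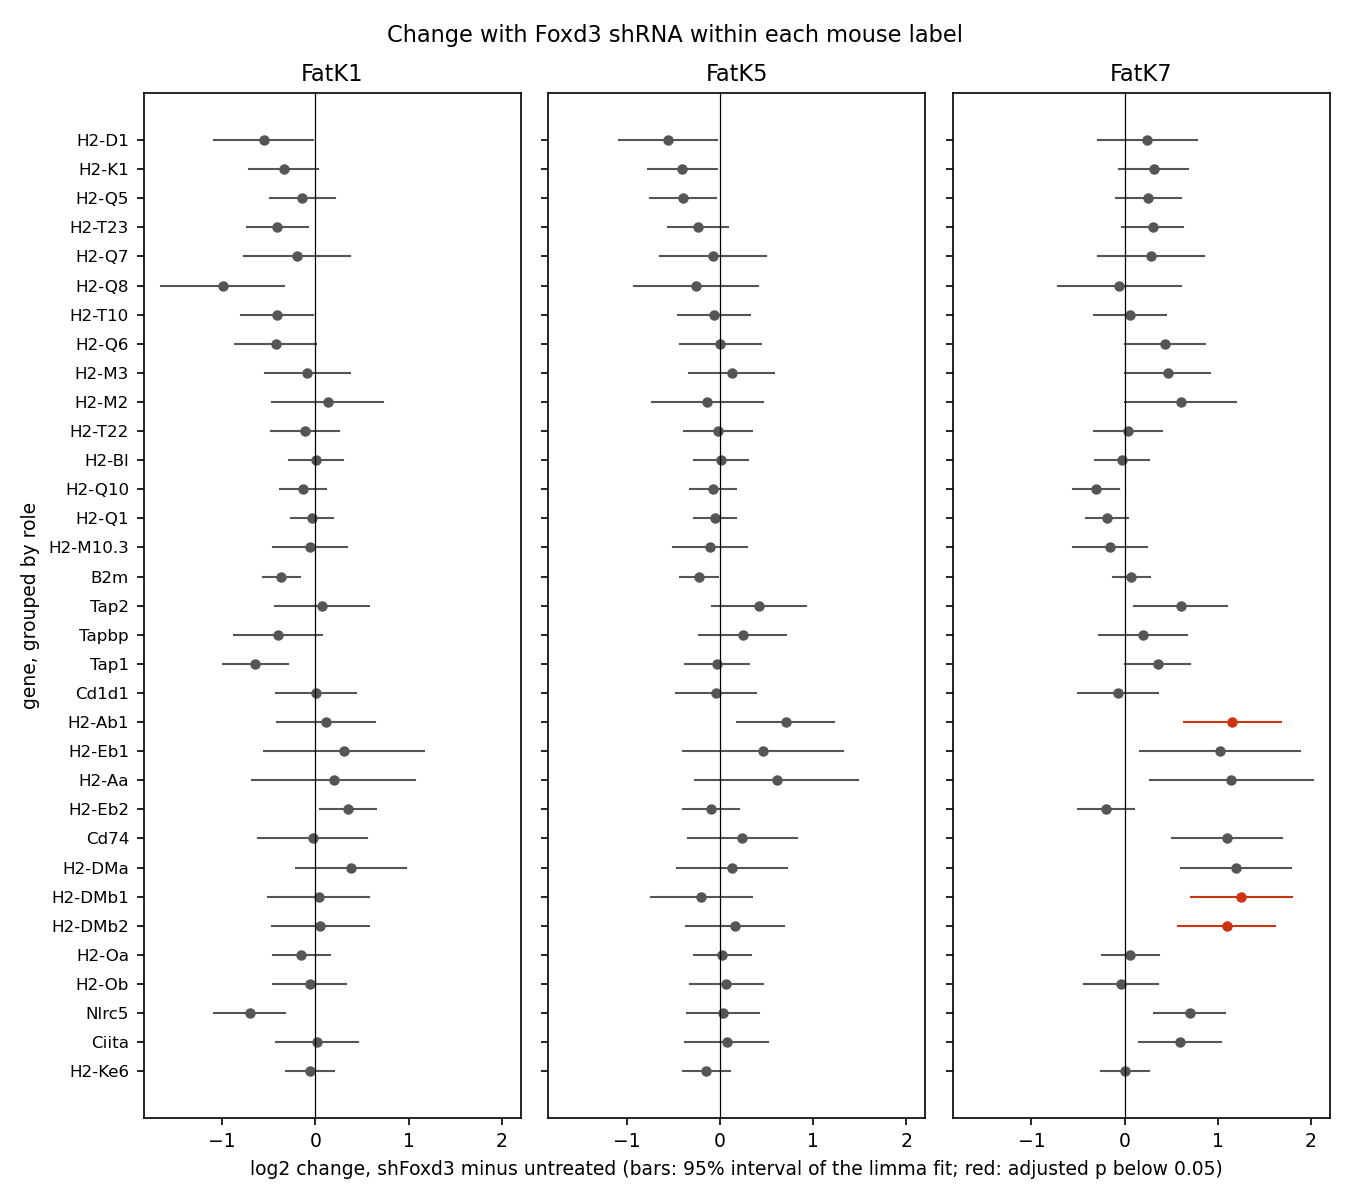
Normalized log2 difference of Foxd3 shRNA minus untreated for the 33 tested genes in each mouse label, with 95% intervals of the limma fit (red: adjusted p below 0.05). H2-Ab1, H2-DMb1 and H2-DMb2 passed in FatK7 (1.16, 1.25 and 1.10), and no gene passed in FatK1 or FatK5.

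With the mouse label as the replicate, comparing arms over 3 labels, 0 of 33 genes passed (0.105% of all probes did), and 5 had an unadjusted p below 0.05, against 5.73% of all probes. These were H2-Aa (log2 difference 0.65), H2-Ab1 (0.66), H2-DMa (0.57), H2-Eb1 (0.60) and Tap2 (0.36), each with an adjusted p of 0.79 in the limma fit. The test of whether the change differed between labels gave 0 calls among the 33 genes, against 0.218% of all probes. At an unadjusted p below 0.05 there were 13 of 33 genes, a larger share than the 2582 of all 24817 probes. Of the 10 class II genes 6 were among them. Nlrc5 came nearest, with an adjusted p of 0.0553, followed by Tap1 at 0.162 and H2-DMb1 at 0.163. Nlrc5 and Tap1 had normalized treated values wholly below the untreated ones in FatK1 and wholly above them in FatK7. H2-K1 and H2-T23 did the same between FatK5 and FatK7. The share of all probes with such opposite separations was not counted, so the pattern is not shown to be particular to these genes. At the adjusted threshold the class II changes seen in FatK7 were thus not shown to differ from those in the other labels.

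Other genes of the pathway were read from lists grouped by function. The immunoproteasome, an interferon-inducible form of the proteasome that cuts class I peptides, had 3 of 5 genes higher and 0 lower in FatK7. Of all probes 0.496% were higher and 0.334% lower there. Psmb8, one of its catalytic subunits, was at 808, 813 and 727 untreated and at 1763, 1052 and 1409 treated (log2 difference 0.88, adjusted p = 0.0103). Psmb10 rose by 0.83 (adjusted p = 0.036) and the activator subunit Psme1 by 0.63 (adjusted p = 0.05 after rounding), while Psmb9 was at 0.81 (adjusted p = 0.328). In FatK1 Psmb8 fell, from 336, 439 and 360 untreated to 291, 203 and 265 treated (−0.79, adjusted p = 0.0224). The difference in Psmb8 between labels passed its own test (adjusted p = 0.00568), the only call of that test in the list. Of 4 co-stimulatory genes Cd86, a ligand of CD28, rose by 1.03 in FatK7 (adjusted p = 0.0322). Trimming and folding (4 genes tested), class II processing (5), factors that bind MHC promoters (6) and the interferon gamma pathway (7) gave 0 calls in each label. Of all probes 0.737%, 0.25% and 0.83% were called in either direction in FatK1, FatK5 and FatK7. Irf1, an interferon-induced transcription factor, was at 1581, 1582 and 1243 untreated and at 3665, 1644 and 1314 treated in FatK7, where again treated array 1 stood apart (0.59, adjusted p = 0.353).

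More genes passed between the untreated cells of the 3 labels than between arms. FatK5 had the lowest levels and FatK7 the highest for most genes, with the order FatK7, FatK1, FatK5 in 23 of 33. Of 33 genes tested, 20 were higher and 1 was lower in FatK1 than in FatK5, against 23.2% and 18.8% of all probes. Against FatK7, 3 were higher and 22 lower in FatK1, where 30.8% of all probes were higher and 25.1% lower. Against FatK7, 0 were higher and 29 lower in FatK5, where 32.8% of all probes were higher and 30.8% lower. Without H2-M2, H2-Q1 and H2-Q10, which had to differ, 19 were lower in FatK1 and 26 in FatK5 than in FatK7, and 21 of 30 kept the order FatK7, FatK1, FatK5. These counts still hold H2-Bl, lower in both labels, and H2-Oa, lower in FatK5, which needed FatK7 arrays to pass the filter. H2-T22, higher in FatK1 than in both other labels, and H2-Ob, lower in FatK1 than in FatK5, were favoured by the filter as well. The median log2 differences were 0.89, −0.89 and −1.63 for the genes in these 3 comparisons, and 0.03, 0.08 and 0.05 for all probes. Each label has its own mix of tissue transcripts, and arrays of FatK1 and FatK5 carry transcripts of both sexes, so these differences describe the labelled arrays, and each pair of comparisons shares the arrays of 1 label.

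Both classical class I genes were in this order. H2-D1 was at 2006, 4407 and 2492 in untreated FatK1, at 640, 1615 and 981 in FatK5 and at 9469, 8462 and 7971 in FatK7. FatK7 did not overlap the other labels, and the log2 differences of H2-D1 were 1.59 ± 0.25 for FatK1 over FatK5 (adjusted p = 3.68e-05) and −2.48 ± 0.25 for FatK5 over FatK7 (adjusted p = 5.99e-08). H2-K1 stood at 669, 885 and 657 in FatK1, 233, 287 and 179 in FatK5 and 2556, 2483 and 2193 in FatK7. B2m differed by 1.25 ± 0.10 between FatK1 and FatK5, by −1.03 ± 0.10 between FatK1 and FatK7 and by −2.28 ± 0.10 between FatK5 and FatK7. H2-T23, which encodes Qa-1, a ligand of inhibitory receptors on NK cells, stood at 762, 1144 and 813 in FatK1, 258, 338 and 251 in FatK5 and 5872, 5952 and 5084 in FatK7. Its differences were 1.82 ± 0.15, −1.81 ± 0.15 and −3.63 ± 0.15 for the same comparisons. The dimmest of its 3 probes gave 0.57 for FatK1 over FatK5 (adjusted p = 0.166) and −3.99 for FatK1 over FatK7.

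The largest called differences between FatK1 and FatK7 lay, by the brightest probes, among non-classical class I genes of the Q region. With the mean of detected probes H2-Q8 was at −3.12, H2-T23 at −2.66 and H2-Q6 at −2.06 (adjusted p 1.73e-09, 9.98e-11 and 2.22e-09). H2-Q8 was at 62.2, 128 and 77.4 in untreated FatK1, at −3.41, 48.2 and 3.59 in FatK5, where 1 of 3 arrays detected it, and at 1638, 1738 and 1750 in FatK7. The log2 difference of H2-Q8 between FatK5 and FatK7 was −5.30 ± 0.32, and that between FatK1 and FatK7 was −3.51 ± 0.32. H2-Q5 was at 590, 613 and 411 in FatK1, 299, 399 and 265 in FatK5 and 6563, 6687 and 6462 in FatK7 (−2.81 ± 0.17 for FatK1 over FatK7 and −3.68 ± 0.17 for FatK5 over FatK7). H2-Q7 was at 300, 278 and 158 in FatK1, 122, 90.0 and 53.9 in FatK5 and 1897, 1816 and 1701 in FatK7. H2-Q10, which encodes a secreted class I molecule made by the liver, was detected on FatK7 arrays alone, at 34.6, 40.8 and 36.3 untreated and 28.4, 29.0 and 16.4 treated. The part of the liver transcripts of FatK7 in this was not tested. H2-T22, a ligand of gamma delta T cells, ran the other way, at 47.7, 26.0 and 31.9 in untreated FatK1 and detected on 0 FatK7 arrays. Because H2-T22 needed FatK1 arrays to pass the detection filter, this direction was favoured in advance.

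Cd1d1, which presents lipids to NKT cells, had the largest called difference between FatK1 and FatK5. It was at 1275, 1592 and 1231 in untreated FatK1, at 79.3, 54.5 and 66.0 in FatK5 and at 3311, 3239 and 3686 in FatK7. The log2 difference was 4.37 ± 0.20 for FatK1 over FatK5 (adjusted p = 4.67e-12) and −4.87 ± 0.20 for FatK5 over FatK7 (adjusted p = 1.41e-13), while FatK1 and FatK7 differed by −0.50 ± 0.20 (adjusted p = 0.0456). Within each label the treated and untreated arrays of Cd1d1 overlapped, with differences of 0.01, −0.04 and −0.07.

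Tap1, Tap2 and Tapbp, which load class I peptides, were lower in FatK5 than in both other labels by their brightest probes. Tap2 was at 157, 184 and 163 in untreated FatK1, at 30.7, 16.2 and 22.8 in FatK5 and at 251, 251 and 210 in FatK7, with a difference of 2.46 ± 0.24 for FatK1 over FatK5 and of 0.01 ± 0.24 for FatK1 over FatK7. Tapbp was at 108, 162 and 129 in FatK1, at 26.9, 19.6 and 14.1 in FatK5 and at 92.0, 57.3 and 91.1 in FatK7, so that FatK1 was above FatK7 by 0.94 ± 0.22 (adjusted p = 0.00141). The second Tapbp probe gave −0.14 for FatK5 over FatK7 (adjusted p = 0.62), against −1.30 for the brightest. H2-Ke6 was higher in FatK1 than in FatK7 by 0.32 ± 0.12 (adjusted p = 0.0313), but by −0.49 (adjusted p = 0.024) with median centring in place of quantile normalization, and its deposited signals were 2066, 2121 and 2272 in FatK1 and 3289, 2944 and 2842 in FatK7. Its direction thus depended on how arrays were scaled. Nlrc5 was at 11.3, 27.8 and 4.98 in FatK5, where 1 of 3 arrays detected it, below FatK1 by 1.43 ± 0.18 on the log2 scale and below FatK7 by 1.74 ± 0.18.

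Between FatK1 and FatK5, 4 of 10 class II genes passed, where 42% of all probes did. Of the 10 genes 3 were higher (Cd74, H2-Ab1 and H2-Eb1) and 1 was lower (H2-Ob) in FatK1. The dimmest of 3 probes did not pass for Cd74 (0.48, adjusted p = 0.207) or for H2-Ab1 (0.38, adjusted p = 0.23). H2-Eb1 passed in 22 of 29 alternatives. Against FatK7, 8 of the 10 were lower in FatK5, where 30.8% of all probes were lower. Among the 8 was H2-Oa, which needed FatK7 arrays to pass the detection filter. Untreated H2-Ab1 was at 498, 326 and 331 in FatK1, 203, 162 and 137 in FatK5 and 2084, 1126 and 1647 in FatK7. The FatK1 and FatK7 arrays of H2-Ab1 did not overlap (−1.30 ± 0.25, adjusted p = 0.000195). H2-DMb1 was at 22.9, 30.6 and 26.9 in FatK1 and 33.8, 30.1 and 31.2 in FatK5, which overlapped, and both lay below FatK7 by over 1.6 on the log2 scale (−1.74 ± 0.26 and −1.63 ± 0.26). H2-Aa differed between FatK5 and FatK7 (−1.26 ± 0.42, adjusted p = 0.0132) but not past the threshold in the other pairs. H2-Ob, the beta chain of H2-DO, was detected on 0 FatK1 arrays and was at 34.6, 14.4 and 13.4 in untreated FatK5. Because H2-Ob needed FatK5 arrays to pass the detection filter, its call against FatK1 was favoured in advance. The summed macrophage markers were at 1837 to 2599 in untreated FatK1, 1147 to 1980 in FatK5 and 8790 to 10731 in FatK7, so FatK7 was highest and the other labels overlapped. Their part in the class II differences was not tested.

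Probes of the same class I gene disagreed. The brightest H2-K1 probe, used above, and the third brightest were highest in FatK7, whereas the second brightest was lowest there. That probe read 22.6 to 28.7 over the 6 FatK7 arrays, 158 to 461 in FatK1 and 70.2 to 135 in FatK5, and the untreated log2 difference of FatK1 over FatK7 was 3.19 ± 0.29. The third probe read 328 to 387 in FatK7, 25.6 to 61.5 in FatK1 and −8.00 to 23.6 in FatK5, a difference of −2.17 for FatK1 over FatK7. H2-D1 had probes of the same kind. The brightest gave −0.89 for untreated FatK1 over FatK7 (adjusted p = 0.00533), the second brightest −0.13 (adjusted p = 0.684) and the third 0.97 (adjusted p = 0.0119). With the mean of detected probes in place of the brightest, untreated FatK1 over FatK7 was 0.04 for H2-K1, −0.02 for H2-D1 and 0.03 for H2-T10, none of which passed. A level of H2-K1 or H2-D1 in FatK1 or FatK5 relative to FatK7 therefore holds for the probe named. Whether alleles of different strains bind these probes differently was not tested.

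**Figure D4:**
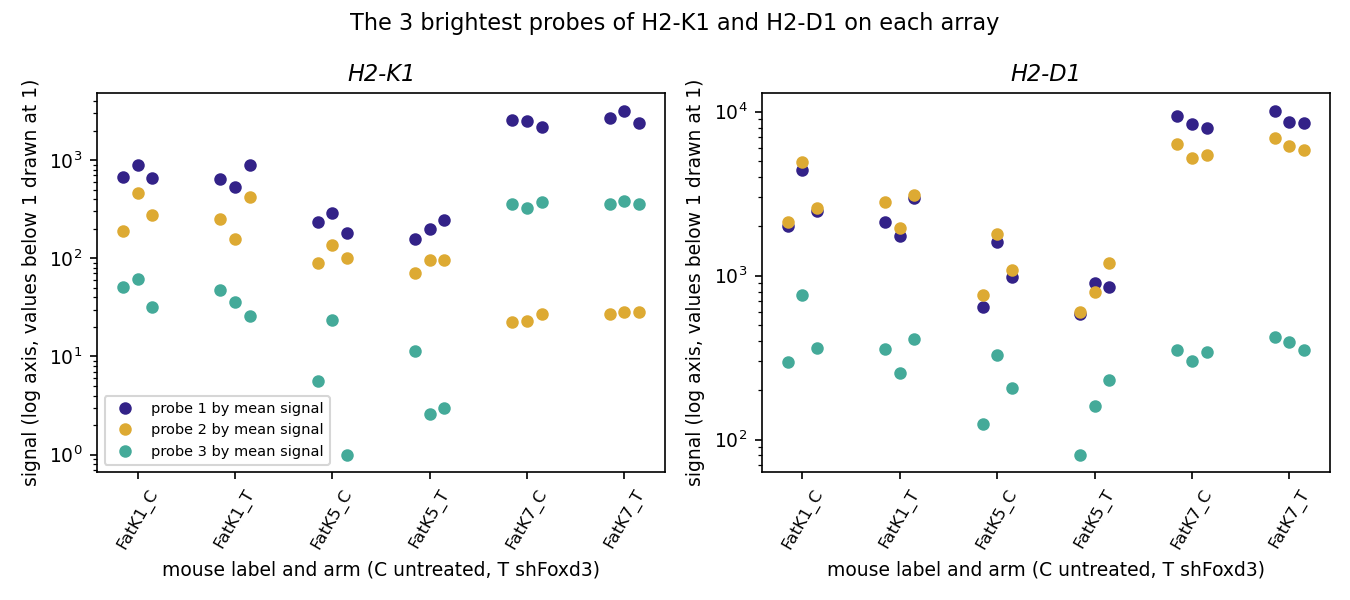
Signals of the 3 brightest probes of H2-K1 and H2-D1 on each array (log axis, values below 1 drawn at 1, points: arrays of each mouse label and arm). The second H2-K1 probe read 22.6 to 28.7 in FatK7, where the third read 328 to 387.

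Within FatK1 and FatK5, some probes split the 6 arrays of a label in a way that the arms do not give. The dimmest of 3 H2-T10 probes, for a non-classical class I gene of the T region, was at 20.8, 18.4 and 9.98 on treated arrays 1 and 2 and untreated array 1 of FatK1, and at 346, 461 and 428 on treated array 3 and untreated arrays 2 and 3. The arrays of the same names in FatK5 gave 18.8, 23.5 and 16.4 against 84.9, 93.8 and 85.2, and FatK7 gave 32.8 to 46.2 on all 6. H2-Aa and H2-Eb1 were lower on treated array 3 and untreated arrays 2 and 3 than on the other 3 arrays in both labels. These were 2 of 33 genes tested, or 6.06%, against 1.15% of all probes with such a split in either direction and 0.475% with the lower values on the same 3 arrays. Arrays of the same name also deviated together between FatK1 and FatK5, with correlations over probes of 0.12 to 0.39, each above that with any other array of FatK5. In normalized values, untreated array 2 was the highest of the 6 arrays in both labels for B2m, H2-D1, H2-K1, H2-Q8, H2-T23 and Nlrc5, which made 6 of 33 genes, or 18.2%, against 8.21% of all probes. These splits were noticed after the values had been seen and were not tested. The first set holds 2 of 3 treated arrays and 1 of 3 untreated arrays, so it is unequal between the arms. Treatment differences given for FatK1 and FatK5 can therefore carry such a split, and how far each does was not tested.

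**Figure D5:**
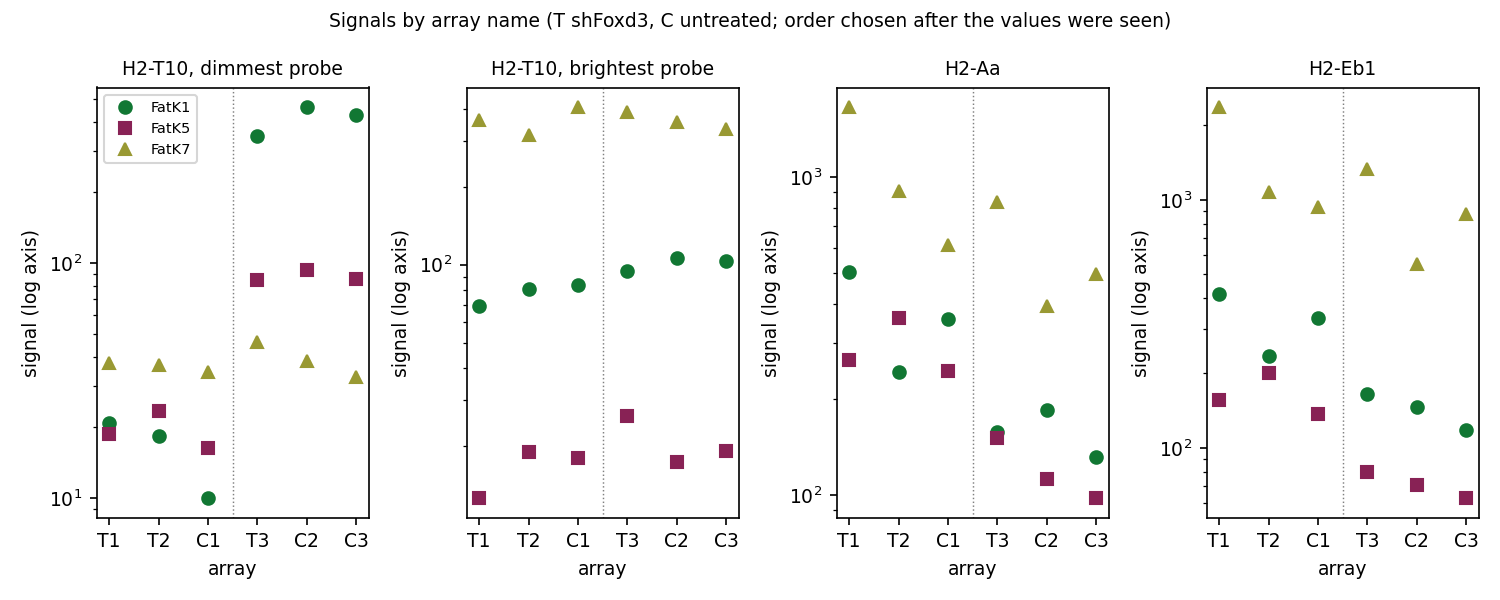
Signals of the dimmest and brightest H2-T10 probes, H2-Aa and H2-Eb1 on the 6 arrays of each mouse label by array name (log axis, T Foxd3 shRNA, C untreated, order chosen after the values were seen). The dimmest H2-T10 probe read 346 to 461 on T3, C2 and C3 of FatK1 and 9.98 to 20.8 on its other arrays.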

How the data were processed

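RNA from 18 arrays in 6 groups (3 mouse labels, untreated or Foxd3 shRNA) was amplified to biotinylated cRNA with the Ambion MessageAmp kit, per the labels' protocols. The deposited table holds, per the file headers, an average signal (intensity, linear, with 23.2% to 30.9% of values below 0 on an array) and a detection p-value for each of 45281 probes. The values are not normalized between arrays. Software, background step and annotation are not given in the sources used here. A second table of the authors' processed intensity values, of unstated scaling, was used as an alternative only.

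Gene names came from the platform annotation, which gives 1 symbol for 34885 probes, several for 18 and none for 10378. All 81 probes of the 47 genes matched RefSeq by Entrez ID. Signals were normalized with neqc (background from the detection p-values, offset 16, quantile normalization, log2) in limma 3.58.1 under R 4.3.3. The 24817 probes tested were those detected (detection p-value below 0.05) on 3 or more arrays. Treatment within a label, untreated labels against each other and the interaction (F-test) were fitted on all 18 arrays with 6 group means (12 residual degrees of freedom). The comparison across labels used 6 profiles with the mouse label as a block (2 residual degrees of freedom). All used lmFit and eBayes with a trend, two-sided, with Benjamini-Hochberg adjustment over all probes tested and a threshold of 0.05. The fit was tested on simulated data before use. The number of arrays limits the precision.

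The genes and lists were chosen with earlier results of these data known. Genes with values per array are those of each role detected on at least 9 arrays (at most the 4 brightest), those called, the largest called differences between untreated labels, and the class II and loading genes. Ciita, Nlrc5, H2-Ea and H2-Q10 were included whatever their values. The probes that disagree, and the dimmest H2-T10 probe, lay outside this rule and were chosen after their values were seen. Alternatives were other normalizations, offsets, filters and probe rules, leaving out single arrays, the Xist-split array sets and array number as a block. Promoters were searched in Python 3.11.15. A further part of the genotype, shared by all groups, is not reported here.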

Additional observations from a re-analysis of the deposited data

How the results depend on the processing

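Of 33 genes tested, the 3 called in FatK7 became 1 with median centring, 1 with the series' processed values, 5 with an offset of 50, 5 without untreated array 2 of FatK1 and FatK5 and 1 without untreated arrays 1 and 3 of those labels. The interaction count of 0 became 1 with an offset of 50, 1 with the mean of detected probes, 1 without untreated array 2 and 3 without untreated arrays 1 and 3. The last setting also moved FatK1 from 0 to 4 and FatK5 from 0 to 1. With probes detected on all 18 arrays, which leaves 16 of the genes, the untreated comparisons gave 13 (FatK1 against FatK5), 14 (FatK1 against FatK7) and 16 (FatK5 against FatK7) in place of 21, 25 and 29. Leaving out single arrays gave 0 to 1 call in FatK1, 0 in FatK5, 0 to 5 in FatK7, 0 across labels, 17 to 22, 22 to 25 and 26 to 29 in the untreated comparisons and 0 to 1 for the interaction. The direction turned for H2-Ke6 between untreated FatK1 and FatK7 with median centring (−0.49), which also moved the median of all probes from 0.05 to −0.13 between untreated FatK5 and FatK7, from 0.08 to −0.04 between FatK1 and FatK7 and from 0.00 to 0.10 in FatK5. The causes were not tested, apart from fewer genes tested under the stricter filter and fewer arrays where arrays were left out. Same-numbered arrays of the arms did not deviate together in every pair (correlation −0.02 to 0.26, over 0.1 in 6 of 9), so the numbers were not taken as pairs. With array number as a replicate block, 6 genes passed in FatK7 (Cd74, H2-Aa and H2-DMa besides the 3), 0 in FatK1 and FatK5, 0 across labels and for the interaction, and 21, 25 and 29 in the untreated comparisons. Signals near background, as of H2-Eb2, H2-Oa and H2-Ob, limit what can be seen of these genes.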
